A study of Homo sapiens with 6 samples.

Results

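ATF4 is the transcription factor through which cells answer a shortage of amino acids, and the genes described here are 42 of its target genes and the tRNA charging enzymes that are switched on with them. They were chosen by name: 8 amino acid synthesis enzymes, 3 mitochondrial one-carbon enzymes, 6 amino acid transporters, 6 transcription factors and transcriptional regulators, 6 stress effectors, and 13 genes of tRNA charging and export, of which 12 encode cytosolic aminoacyl-tRNA synthetases and 1 encodes the tRNA exporter XPOT. All 42 had a probe on the array, out of 19740 genes that could be named, and together they had 49 probes. The cells were CAL-27, an established tongue squamous carcinoma line, with XBP-1s knocked down by shRNA (shXBP-1s, n = 3) or with the control shRNA (shCtrl, n = 3). No drug, nutrient withdrawal or time course was part of these groups. According to the methods the shRNA was stably transduced, whereas the sample labels speak of a transfection, and a stable line shows the state reached after selection rather than the first hours after the loss. No label says that the replicates came from separate cultures, so that the p-values measure the spread between these samples, which may be technical.

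The unfolded protein response has 3 sensors in the membrane of the endoplasmic reticulum. IRE1 alpha splices the XBP1 mRNA, which then encodes the transcription factor XBP-1s, while PERK phosphorylates the translation factor eIF2 alpha, and this lets the ATF4 mRNA be translated although most other translation slows. The kinase GCN2 reaches ATF4 through the same phosphorylation when uncharged tRNA accumulates. ATF4 then binds, often as a dimer with a C/EBP protein, to composite elements near genes that make, import and charge amino acids, and to genes that feed back on the response. The comparison of shXBP-1s with shCtrl asked how this arm stood in cells with little XBP1 mRNA. Because ATF4 is controlled largely in translation, its mRNA level does not report its protein, which the arrays did not measure.

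Values below are log2 spot intensities relative to the 75th percentile of their array, here called the log2 signal, so that 1 unit is a 2-fold difference for the same probe. Signals of different probes are not compared with each other. A gene was represented by its brightest tested probe, a change is the mean of the 3 shXBP-1s arrays minus the mean of the 3 shCtrl arrays, errors of changes are standard errors, and p-values are from limma with Benjamini-Hochberg adjustment over all 27624 tested probes, 2-sided. "Rose" and "fell" are used of genes with an adjusted p below 0.05. With this number of arrays an exact permutation test of 1 gene cannot give a p below 0.1.

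The XBP1 probe checked the labels. Its log2 signal was 1.88, 1.85 and 1.87 on the shCtrl arrays and -0.50, -0.54 and -0.52 on the shXBP-1s arrays, a fall by 80.9% (log2 change -2.39 ± 0.04, adjusted p = 2.81e-07, limma). The probe does not tell spliced from unspliced XBP1 mRNA. Between 82.1% and 84.8% of spots were well above background on the 6 arrays, no spot was saturated, and arrays of the same group correlated at 0.993 or more. The slide was inferred from the scan times in the scanner headers, by which shCtrl replicates 2 and 3 shared 1 slide, and shCtrl replicate 1 shared the other slide with all 3 shXBP-1s samples. All 10 squamous epithelial markers, KRT5, KRT14 and TP63 among them, were well above background on all 6 arrays, and 8 of the 10 were higher in shXBP-1s. The log2 of their summed signal was 7.0 to 7.08 in shCtrl and 7.55 to 7.84 in shXBP-1s. Of the fibroblast markers, 4 of 5 were well above background on all 6 arrays and COL3A1 on none, with a log2 summed signal of -0.20 to -0.05 in shCtrl and -1.04 to -0.93 in shXBP-1s. The sum hides opposite members, since PDGFRB (-1.28) and COL1A1 (-0.63) were lower, whereas FAP (1.76) and DCN (1.43) were higher. The corresponding counts were 5 of 5 for leukocyte, 4 of 4 for endothelial and 2 of 3 for melanocyte markers, with log2 summed signals between -2.46 and 0.10, TYR being the melanocyte marker that was not. The part of these differences in the results below was not tested.

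ATF4 acts through short DNA elements that can lie close to the start of a gene, so matches to them are shown first. RefSeq promoter windows on GRCh38.p14, from 250 bases before to 50 bases after an annotated transcription start, were at hand for 35 of the 42 genes. The composite element of ATF4 and C/EBP proteins was searched as TGATGNAA on both strands. Its letters were present in a window of 15 of the 35 genes (42.9%), against 1217 of all 27305 genes with a window (4.46%). The 15 were ASNS, CHAC1, SLC3A2, SLC1A5, SLC1A4, SLC7A1, CEBPG, JDP2, AARS1, GARS1, NARS1, CARS1, MARS1, IARS1 and TARS1, so that 7 of them are synthetase genes. Many of the genes are known ATF4 targets because of such elements, and a match is a description of letters, not of binding. The 6 matches that lay clear of the start are printed as the 30 bases around them, with the element in capitals. They are read 5′ to 3′ along the coding strand, which has the sequence of the RNA. Where the element lay on the opposite strand the capitals show its reverse complement.
ASNS, chr7:97872458-97872487, minus strand: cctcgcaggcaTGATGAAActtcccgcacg
CEBPG, chr19:33374060-33374089, plus strand: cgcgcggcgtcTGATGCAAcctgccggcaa
SLC1A5, chr19:46784893-46784922, minus strand: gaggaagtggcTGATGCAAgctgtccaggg
GARS1, chr7:30594834-30594863, plus strand: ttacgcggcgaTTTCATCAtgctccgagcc
AARS1, chr16:70289675-70289704, minus strand: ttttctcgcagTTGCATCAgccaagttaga
CHAC1, chr15:40953251-40953280, plus strand: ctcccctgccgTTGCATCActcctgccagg
The first base of the element stood 68 bases before the annotated start in ASNS, 42 in CEBPG, 97 in SLC1A5, 33 in GARS1, 187 in AARS1 and 209 in CHAC1. These 6 genes did not move together: ASNS and CEBPG fell, SLC1A5 and GARS1 rose, and the changes of AARS1 and CHAC1 did not pass the test. The rises of SLC1A5 (0.26) and GARS1 (0.44) did not pass under every alternative given below. Against shCtrl replicate 1 alone, the control on the same slide, they were 0.21 and 0.30.

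**Figure D1:**
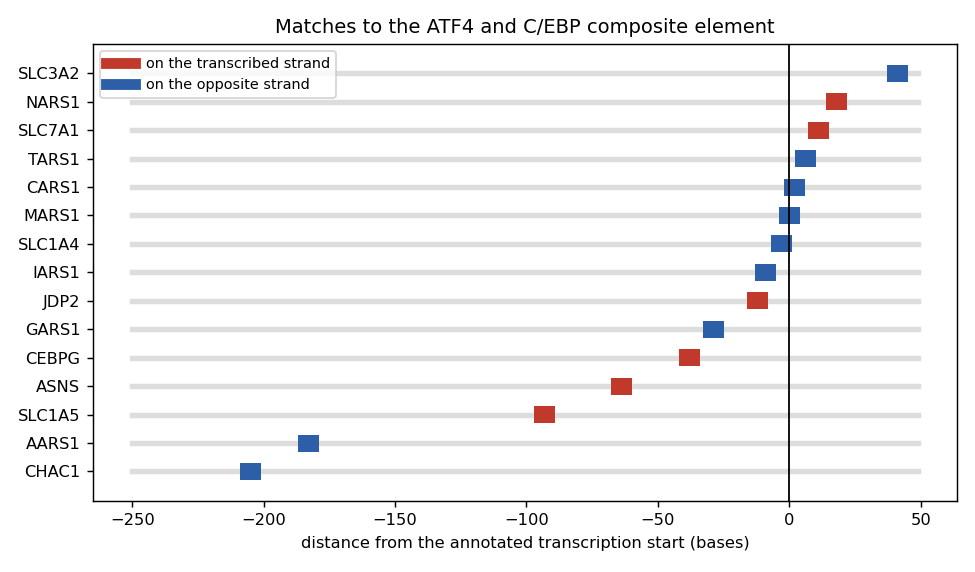
Position of the ATF4 and C/EBP composite element in the promoter windows of the 15 genes that hold its letters. The horizontal axis is the distance in bases from the annotated transcription start, and grey bars are the window from 250 bases before to 50 bases after the start. Coloured bars are matches on the coding strand (red, labelled as the transcribed strand in the legend) or the opposite strand (blue). In CHAC1 and AARS1 the match begins 209 and 187 bases before the start, and in most of the others it lies close to the start.

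A further 3 motifs were searched in the same windows on both strands. The CREB and ATF core TGACGTCA and the core of the unfolded protein response element, TGACGTGG, which XBP-1s and ATF6 bind, begin with the same 6 letters, and neither contains the composite element. The CREB and ATF core was found in 1 of the 35 genes, PPP1R15A, and in 2.25% of all genes. The unfolded protein response core was found in 2 of the 35, ALDH18A1 and CARS1, and in 0.93% of all genes. The endoplasmic reticulum stress element, CCAAT and CCACG 9 bases apart, was found in 0 of the 35 and in 0.09% of all genes. The matches before the start in PPP1R15A and ALDH18A1 are printed because they are the only ones of their kind upstream of a start among these genes, with the motif in capitals and, in ALDH18A1, as its reverse complement.
PPP1R15A, chr19:48872352-48872381, plus strand: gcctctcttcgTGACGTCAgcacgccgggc
ALDH18A1, chr10:95656753-95656782, minus strand: aggccctcgccCCACGTCAacagcgtaggg
PPP1R15A rose, and ALDH18A1 changed by -0.03 ± 0.06 (95% confidence interval -0.17 to 0.10).

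In cells with little XBP1 the genes did not rise or fall as 1 body. Of the 42 genes, 41 had a tested probe, 9 rose and 11 fell, and 21 did not pass the test. In the whole table of 16821 tested genes, 18.9% were higher and 27.5% lower by the same rule, and among the 41 members the shares were 22.0% and 26.8%. None of the 41 changed 2-fold with an adjusted p below 0.05, against 5.18% of all tested genes, while 23 had an unadjusted p below 0.05 in limma, 10 higher and 13 lower. The methods' t-test, like limma, counted 0 at 2-fold. The largest fall was that of DDIT4 (-0.80) and the largest rise that of NUPR1 (0.71), and the median change was -0.01 beside -0.04 over all tested genes. The groups did not overlap for 24 of the 41 genes (58.5%), against 56.5% of all tested genes. In bulk RNA, fewer cells with a transcript and less of it per cell cannot be told apart. The untested gene was the neutral amino acid transporter SLC1A4, whose log2 signal lay between -8.53 and -7.22 and was not well above background on all 3 arrays of either group. The brightest tested probes of the other 41 were well above background on all 6 arrays, so none entered the test through 1 group alone.

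**Figure D2:**
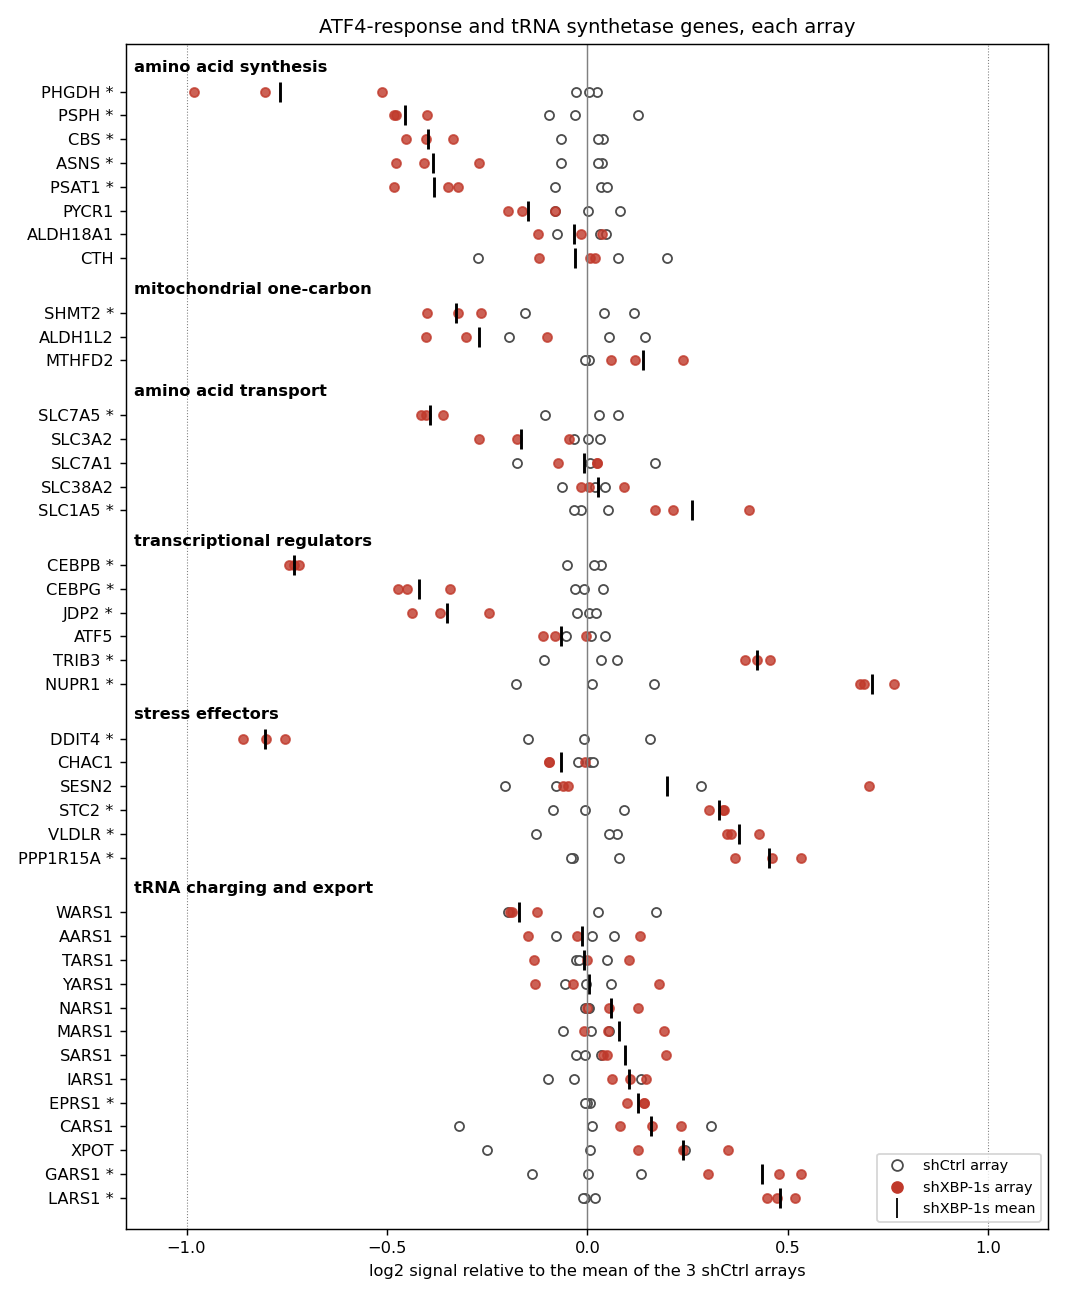
Log2 signal of the 41 tested genes on each array, relative to the mean of the 3 shCtrl arrays and ordered by role. Open circles are shCtrl arrays, filled red circles shXBP-1s arrays, black ticks the shXBP-1s mean, dotted lines a 2-fold difference, and an asterisk an adjusted p below 0.05. The shXBP-1s means of the synthesis enzymes lie at or below 0, those of most synthetases lie near 0, and no shXBP-1s mean reaches a dotted line.

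Sorted by role, the genes went different ways. The change was below 0 for all 8 amino acid synthesis enzymes, with 5 falls, and their median was -0.38. The 3 one-carbon enzymes had a median of -0.27 with 1 fall, and the 5 tested transporters a median of -0.01 with 1 rise and 1 fall. Among the 6 transcriptional regulators 2 rose and 3 fell (median -0.21), among the 6 stress effectors 3 rose and 1 fell (median 0.26), and among the 13 genes of tRNA charging and export 3 rose and none fell (median 0.09). By the same rule 18.9% of all tested genes were higher and 27.5% lower. These shares were 0% and 62.5% for synthesis, 0% and 33.3% for one-carbon enzymes, and 20% and 20% for transport. They were 33.3% and 50% for the regulators, 50% and 16.7% for the stress effectors, and 23.1% and 0% for tRNA charging and export. With the slide as a block, tRNA charging and export had 1 rise, 1 fall and a median of 0.017, and in the deposited values 6 rises. On single arrays the median shift of the synthesis enzymes was -0.46, -0.37 and -0.30 in shXBP-1s and between -0.06 and 0.04 in shCtrl. That of tRNA charging and export was 0.13, 0.05 and 0.13 in shXBP-1s and between -0.01 and 0.01 in shCtrl. The groups of arrays did not overlap in these medians for either set, nor for the regulators and the stress effectors. They did not overlap for all tested genes either, at -0.044 to -0.03 in shXBP-1s and -0.002 to 0.007 in shCtrl. They overlapped for the one-carbon enzymes, where shCtrl replicate 1 (-0.16) lay below shXBP-1s replicate 1 (-0.10), and for the transporters. After normexp, a background correction by a convolution model, the median change of all tested probes was -0.41, that of the stress effectors -0.12 and that of the synthesis enzymes -0.29. The shift sat in dim probes, with a median of -0.86 in the dimmest of 4 equal parts of the tested probes and of 0.04 in the brightest, which held 27 of the 41 members' probes. Relative to that overall shift the synthesis enzymes had a median of 0.13, and 22 of the 41 members were higher and none was lower, whereas on the 75th percentile scale used here the median of all tested probes was -0.02. Since the roles hold few genes and were named with earlier results known, these medians describe the groups and no test was made of them.

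**Figure D3:**
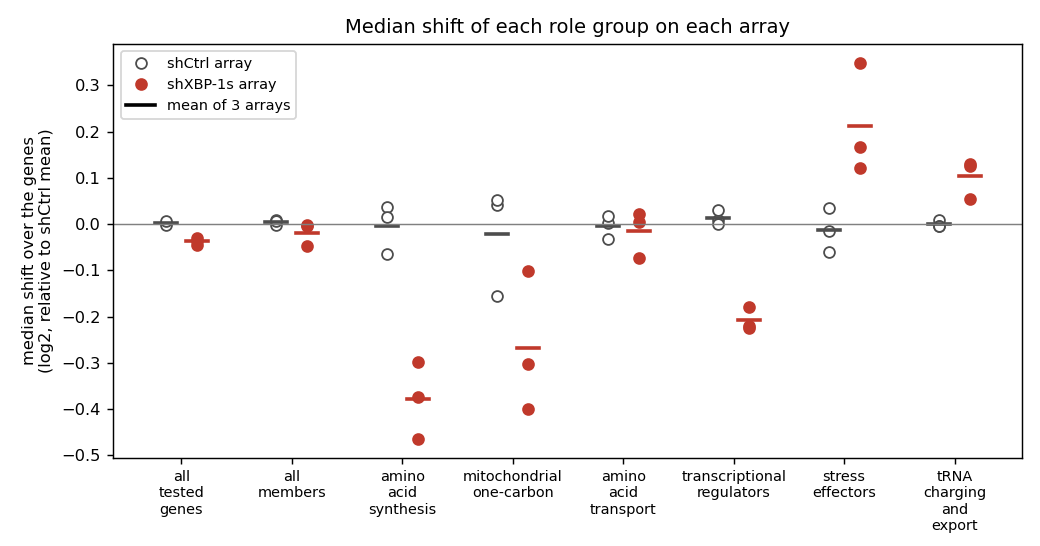
Median shift of the genes of each role on each array, in log2 units relative to the shCtrl mean, beside all tested genes and all 41 tested members. Open circles are shCtrl arrays, filled circles shXBP-1s arrays, and short lines the mean of 3 arrays. The synthesis enzymes lie at -0.46 to -0.30 in shXBP-1s and the stress effectors at 0.12 to 0.35, while all members together lie between -0.05 and 0.01 on the 6 arrays.

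Amino acid synthesis was the role with the most falls. PHGDH, which opens the serine pathway from glycolysis, had a log2 signal of -1.10, -1.05 and -1.07 on the shCtrl arrays and of -1.59, -1.88 and -2.06 on the shXBP-1s arrays. All shXBP-1s values were below all shCtrl values, and the shXBP-1s arrays were more spread (SD 0.24 against 0.03). PHGDH fell by 41.2% (-0.77 ± 0.11, adjusted p = 8.16e-04). PSPH, the last enzyme of the same pathway, gave 1.20, 1.42 and 1.26 in shCtrl and 0.81, 0.81 and 0.89 in shXBP-1s. It fell to 0.73 of the shCtrl level (-0.45 ± 0.06, adjusted p = 8.06e-04). PSAT1, the transaminase between them, fell by 23.3% (-0.38 ± 0.06, adjusted p = 1.38e-03), so that each of the 3 enzymes from 3-phosphoglycerate to serine was lower. ASNS, which makes asparagine and is the best known target of the amino acid response, fell by 23.4% (-0.39 ± 0.06, adjusted p = 1.65e-03). CBS, which joins homocysteine and serine in the transsulfuration pathway, fell by 24.0% (-0.40 ± 0.05, adjusted p = 5.06e-04), but its near-identical copy CBSL may share the probe. CTH, the next enzyme of that pathway, changed by -0.03 ± 0.12 with overlapping groups. Of the proline enzymes, PYCR1 changed by -0.15 ± 0.06 (adjusted p = 0.0725) and ALDH18A1 by -0.03. The second PYCR1 probe, for another transcript, was too dim to be tested.

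The mitochondrial one-carbon enzymes act on serine and on the one-carbon units taken from it. SHMT2, which splits serine into glycine and a one-carbon unit, gave 2.07, 2.27 and 2.34 in shCtrl and 1.96, 1.91 and 1.83 in shXBP-1s. The groups did not overlap, and SHMT2 fell by 20.4% (-0.33 ± 0.08, adjusted p = 8.98e-03). Its change was -0.17 within the slide that held both groups, where the adjusted p was 0.119, and -0.16 (adjusted p = 0.242) and -0.18 (adjusted p = 0.26) after normexp background correction without and with quantile normalization. MTHFD2, the next enzyme and a common mark of ATF4 activity, went the other way with 2.83, 2.83 and 2.82 in shCtrl and 2.89, 2.95 and 3.07 in shXBP-1s. The groups did not overlap, yet the change of 0.14 ± 0.06 did not pass the test (adjusted p = 0.0753), and its 95% confidence interval ran from 0.01 to 0.27. MTHFD2 passed as higher after normexp (0.28, adjusted p = 0.0263), with quantile normalization (0.19, adjusted p = 0.00659), with both (0.19, adjusted p = 0.00771), in the deposited values (0.20, adjusted p = 0.0048) and without shXBP-1s replicate 1 (0.18, adjusted p = 0.0369). ALDH1L2, a mitochondrial folate dehydrogenase, was dim, with -6.26, -5.92 and -6.01 in shCtrl and -6.16, -6.36 and -6.46 in shXBP-1s. These groups overlapped (-0.27 ± 0.18, adjusted p = 0.259).

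Amino acid transporters changed in no common direction. SLC7A5, the large neutral amino acid exchanger LAT1, had a log2 signal of 3.85, 4.03 and 3.99 in shCtrl and 3.60, 3.56 and 3.54 in shXBP-1s. It fell by 23.8% (-0.39 ± 0.06, adjusted p = 9.37e-04), though after normexp correction its change was -0.19 with an adjusted p of 0.417. SLC3A2, the heavy chain that brings SLC7A5 to the membrane, gave 1.86, 1.89 and 1.92 against 1.84, 1.71 and 1.62. The highest shXBP-1s value lay just below the lowest shCtrl value, and the change of -0.16 ± 0.06 did not pass the test (adjusted p = 0.067). SLC1A5, a glutamine transporter, was higher in shXBP-1s with -1.36, -1.55 and -1.60 against -1.72, -1.78 and -1.80 in shCtrl. It rose by 0.26 ± 0.07 (adjusted p = 0.0214), and with 1 array left out the change stayed between 0.19 and 0.31. The adjusted p was 0.0583 without shCtrl replicate 2 (0.25), 0.071 without shCtrl replicate 3 (0.24), 0.0501 without shXBP-1s replicate 2 (0.285) and 0.162 with the slide as a block (0.21), and the change was 0.01 after normexp correction. SLC38A2, a sodium-coupled carrier of small neutral amino acids, showed 4.99, 5.10 and 5.07 in shCtrl and 5.15, 5.06 and 5.04 in shXBP-1s. These groups overlapped (0.03 ± 0.06), whereas a dimmer SLC38A2 probe rose by 0.32 ± 0.10 (adjusted p = 0.0294), so that the probes of this gene disagree. SLC7A1, the carrier of arginine and lysine, changed by -0.01 ± 0.09.

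Among the transcriptional regulators, CEBPB and CEBPG, which are dimer partners of ATF4 from the C/EBP family, fell. CEBPB had a log2 signal of 5.04, 4.96 and 5.02 on the shCtrl arrays and 4.29, 4.26 and 4.28 on the shXBP-1s arrays. The groups were far apart for their spread (SD 0.05 and 0.01), and CEBPB fell by 39.8% (-0.73 ± 0.05, adjusted p = 1.34e-05). CEBPG, the usual partner of ATF4 at the composite element and itself a holder of that element, gave 0.83, 0.90 and 0.85 against 0.39, 0.41 and 0.52. It fell by 25.3% (-0.42 ± 0.05, adjusted p = 3.44e-04). JDP2, an AP-1 family repressor, fell as well (-0.35 ± 0.06, adjusted p = 1.61e-03), and ATF5, a close relative of ATF4, changed by -0.07 ± 0.09. The rises were in 2 genes of the stress response. NUPR1, a small chromatin-associated stress protein, gave -0.65, -0.50 and -0.85 in shCtrl and 0.02, 0.01 and 0.10 in shXBP-1s. It was 1.64-fold higher (0.71 ± 0.09, adjusted p = 3.17e-04). TRIB3, a pseudokinase that binds ATF4 and dampens it, gave 0.92, 1.11 and 1.06 in shCtrl and 1.42, 1.45 and 1.49 in shXBP-1s, a 1.34-fold rise (0.42 ± 0.06, adjusted p = 6.04e-04).

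The stress effectors held the strongest fall. DDIT4, also called REDD1, restrains mTORC1 signalling, and its log2 signal was 5.30, 4.996 and 5.13 in shCtrl and 4.39, 4.34 and 4.29 in shXBP-1s. Every shXBP-1s array lay below every shCtrl array, and DDIT4 fell by 42.7% (-0.80 ± 0.08, adjusted p = 1.16e-04). Within the slide that held both groups the change was -0.96. PPP1R15A, also called GADD34, brings the phosphatase that removes the phosphate from eIF2 alpha. It gave -2.94, -2.95 and -2.83 in shCtrl and -2.37, -2.45 and -2.54 in shXBP-1s, a rise of 0.45 ± 0.07 (adjusted p = 1.40e-03), but after normexp correction alone its change was -0.09 (adjusted p = 0.827). VLDLR, a lipoprotein receptor, gave -0.48, -0.68 and -0.50 against -0.12, -0.20 and -0.21 and rose by 0.38 ± 0.07 (adjusted p = 2.20e-03). Its second, dimmer probe changed by 0.37 ± 0.14 (adjusted p = 0.0636). The secreted glycoprotein STC2 rose by 0.33 ± 0.06 (adjusted p = 2.08e-03), with an adjusted p of 0.0956 after normexp correction. CHAC1, which degrades glutathione and is among the genes most responsive to ATF4, gave -1.39, -1.36 and -1.35 in shCtrl and -1.47, -1.47 and -1.37 in shXBP-1s. Its groups overlapped (-0.07 ± 0.05, 95% confidence interval -0.19 to 0.05), and a second probe was too dim to be tested. SESN2, a leucine sensor that restrains mTORC1, changed by 0.20 ± 0.22 with an SD of 0.44 in shXBP-1s, where replicate 2 (-1.34) lay above the other 2 replicates (-2.10 and -2.09), and without that array its change was -0.055.

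Cytosolic synthetases load amino acids onto their tRNAs, and those listed here belong to the ATF4 program. LARS1, the leucyl-tRNA synthetase, had a log2 signal of -1.95, -1.95 and -1.92 in shCtrl and -1.49, -1.47 and -1.42 in shXBP-1s. It rose by 39.5% (0.48 ± 0.05, adjusted p = 1.69e-04), with 0.17 (adjusted p = 0.49) after normexp correction. GARS1, the glycyl-tRNA synthetase, gave 2.47, 2.20 and 2.34 in shCtrl and 2.87, 2.63 and 2.81 in shXBP-1s. It rose by 35.3% (0.44 ± 0.09, adjusted p = 4.12e-03), and within the shared slide its change was 0.30 with an adjusted p of 0.0618. EPRS1, which charges glutamate and proline tRNAs, rose by 9.1% (0.13 ± 0.04, adjusted p = 0.0371), and leaving out any 1 of the 6 arrays brought its adjusted p to between 0.0556 and 0.114. In the other direction WARS1, the tryptophanyl-tRNA synthetase, gave 1.36, 1.22 and 1.00 in shCtrl and 1.00, 1.07 and 1.00 in shXBP-1s, with overlapping groups (-0.17 ± 0.09, adjusted p = 0.16). WARS1 passed as lower with the slide as a block (-0.34, adjusted p = 0.026) and without shCtrl replicate 3 (-0.27, adjusted p = 0.0167). AARS1, the alanyl-tRNA synthetase, gave -1.69, -1.83 and -1.74 against -1.62, -1.78 and -1.90 (-0.01 ± 0.08). The remaining synthetases changed by 0.09 (SARS1), 0.06 (NARS1), 0.16 (CARS1), 0.08 (MARS1), 0.00 (YARS1), 0.10 (IARS1) and -0.01 (TARS1), none past the test, and the exporter XPOT by 0.24 ± 0.12 (adjusted p = 0.149). IARS1 had 3 tested probes, and while the brightest gave 0.10 and the next 0.19, the dimmest rose by 0.47 ± 0.08 (adjusted p = 1.43e-03). The dimmer MARS1 probe gave -0.03. The 95% confidence intervals of the synthetases that did not pass lay between -0.37 and 0.48, the widest being that of CARS1 (-0.16 to 0.48).

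For all 20 genes that passed the test the groups of arrays did not overlap. Their direction against shCtrl replicate 1 alone, the control on the same slide, was therefore fixed beforehand and checks nothing. Against that control the changes were 0.53 to 1.25 times those over all arrays. With the slide as a block, 16 of the 20 still passed, and SHMT2, SLC1A5, GARS1 and EPRS1 did not, while WARS1 came to pass as lower. Of the 21 that had not passed, XPOT, CARS1, IARS1 and TARS1 changed sign within the slide. With quantile normalization, and with the log2 values that the authors deposited, all 20 kept direction and call. The members that passed only under these settings were MTHFD2, NARS1 and MARS1 with quantile normalization, with SARS1 added in the deposited values. A probe printed as 10 spots per array, as for 6 of these genes, gives a measure of the error within an array. For CEBPB the SD over its spots was 0.02 to 0.06 on the 6 arrays and for DDIT4 0.03 to 0.06, well under their changes, and for JDP2 it was 0.03 to 0.08. For MTHFD2 the SD over single spots was 0.10 to 0.17, where the signal of an array is the mean of these spots.

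**Figure D4:**
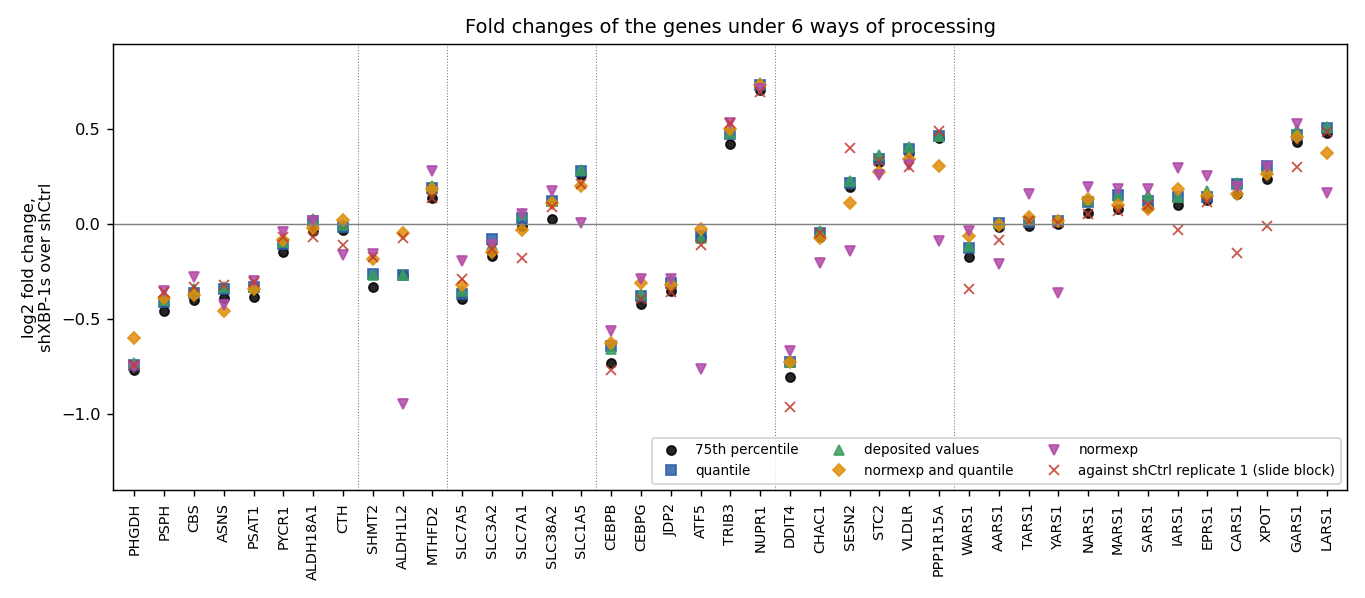
Log2 fold change of the 41 tested genes, shXBP-1s over shCtrl, under 6 ways of processing the same arrays. Each column is a gene, dotted lines part the roles, and symbols stand for the 75th percentile scaling, quantile normalization, the deposited log2 values, normexp correction with and without quantile normalization, and the comparison with shCtrl replicate 1 on the same slide. The synthesis enzymes that fell stay below 0 under these 6, whereas PPP1R15A lies at -0.09 under normexp alone and at 0.45 in the reported comparison. Normexp relative to the median of all tested probes is not shown. There PSAT1 (0.12), PSPH (0.063) and CBS (0.14) were above 0, and ASNS (-0.012) and PHGDH (-0.34) below.

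Genes with and without the composite element moved in both directions. The 14 tested genes that held its letters had 2 rises and 3 falls with a median of -0.01 (-0.42 to 0.44), and the 20 tested genes with a window but without a match had 5 rises and 6 falls with a median of 0.00 (-0.80 to 0.45). Of all tested genes 18.9% were higher and 27.5% lower. The 7 genes without a window stand in neither count: NUPR1 (0.71), LARS1 (0.48), YARS1 (0.00), PYCR1 (-0.15), ALDH1L2 (-0.27), SHMT2 (-0.33) and PSPH (-0.45). Whether the element made a difference was not tested.

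The upstream steps were read from a list of eIF2 alpha kinases, eIF2 and eIF2B subunits, their regulators and ATF4, of which 15 genes were tested, none rose and 4 fell. The falls are 26.7% of the 15, close to the 27.5% of all tested genes that were lower, while 18.9% of all tested genes were higher. ATF4 mRNA was 4.79, 4.84 and 4.84 in shCtrl and 4.78, 4.84 and 4.90 in shXBP-1s, with overlapping groups (0.02 ± 0.05, 95% confidence interval -0.10 to 0.13). PERK, listed as EIF2AK3, changed by 0.00 ± 0.07. The 4 that fell, named after their values were seen, were the heme-regulated kinase EIF2AK1 (-0.54), the amino acid sensing kinase GCN2, listed as EIF2AK4 (-0.21), eIF2 alpha itself, EIF2S1 (-0.46), and the exchange factor subunit EIF2B3 (-0.46). A dimmer probe of EIF2S2 fell by 1.11, while its brightest probe changed by 0.00.

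Of 14 other known ATF4 targets that were tested, 3 rose, 7 fell and 4 did not pass, and 3 of the falls were at least 2-fold. The rises were 21.4% of the 14 and the falls 50%, beside 18.9% and 27.5% of all tested genes. At 2-fold 21.4% were called, beside 5.18% of all tested genes. The list was written with earlier results of these data known, and the difference was not tested. ATF3 did not pass by its brightest probe (0.135, adjusted p = 0.0519). Its dimmer probes rose by 0.80 (adjusted p = 2.32e-05) and 0.94 (adjusted p = 2.67e-04) or changed by 0.18 (adjusted p = 0.0713), so that ATF3 is not settled by the count. GDF15, a secreted stress cytokine, had a log2 signal of 3.51, 3.69 and 3.62 in shCtrl and 2.30, 2.30 and 2.36 in shXBP-1s (-1.29 ± 0.06, adjusted p = 3.08e-06). SLC7A11, the cystine importer of the antioxidant response, gave -0.44, -0.15 and -0.21 against -1.33, -1.40 and -1.68 (-1.20 ± 0.11, adjusted p = 7.20e-05). LAMP3, a lysosomal membrane protein, gave 1.36, 1.56 and 1.497 against 0.35, 0.32 and 0.28 (-1.15 ± 0.06, adjusted p = 5.75e-06). DDIT3, the proapoptotic C/EBP family factor CHOP, which also pairs with ATF4, had overlapping groups with -2.73, -2.69 and -2.59 in shCtrl and -2.59, -2.64 and -2.66 in shXBP-1s (0.04 ± 0.07, adjusted p = 0.633). GDF15 and SLC7A11 also answer to p53 and NRF2, as is known of them, so the list is not one of ATF4 alone.

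In the remaining lists, 3 of 11 tested cytosolic synthetases and scaffold proteins outside the 42 genes rose and 2 fell, and of 17 mitochondrial synthetases 5 rose and 3 fell. None of these was called at 2-fold. The tested probes of BCAT1 (-0.285 and 0.54), MAP1LC3B (0.64 and -0.255) and SLC6A15 (0.725, 0.83 and -0.35) were called in opposite directions, and in the counts of the lists each gene stands by its brightest probe, given first. Among 13 other amino acid transporters 3 rose and 4 fell, and the glutamate transporter SLC1A3 was the only one at 2-fold, with 2.05, 2.38 and 2.28 in shCtrl and 0.99, 0.90 and 0.78 in shXBP-1s (-1.35 ± 0.09, adjusted p = 1.79e-05). Of 22 other amino acid and one-carbon enzymes 9 rose and 6 fell. ASL, which makes arginine from argininosuccinate, went from -1.38, -1.12 and -0.91 to -0.12, -0.11 and -0.10 (1.03 ± 0.11, adjusted p = 1.44e-04), and without shCtrl replicate 1 its change of 0.91 was under 2-fold. In all, 23 of the 92 tested genes of these lists rose (25%) and 26 fell (28.3%), beside 18.9% and 27.5% of all tested genes, and 6 of 92 (6.52%) were called at 2-fold.

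**Figure D5:**
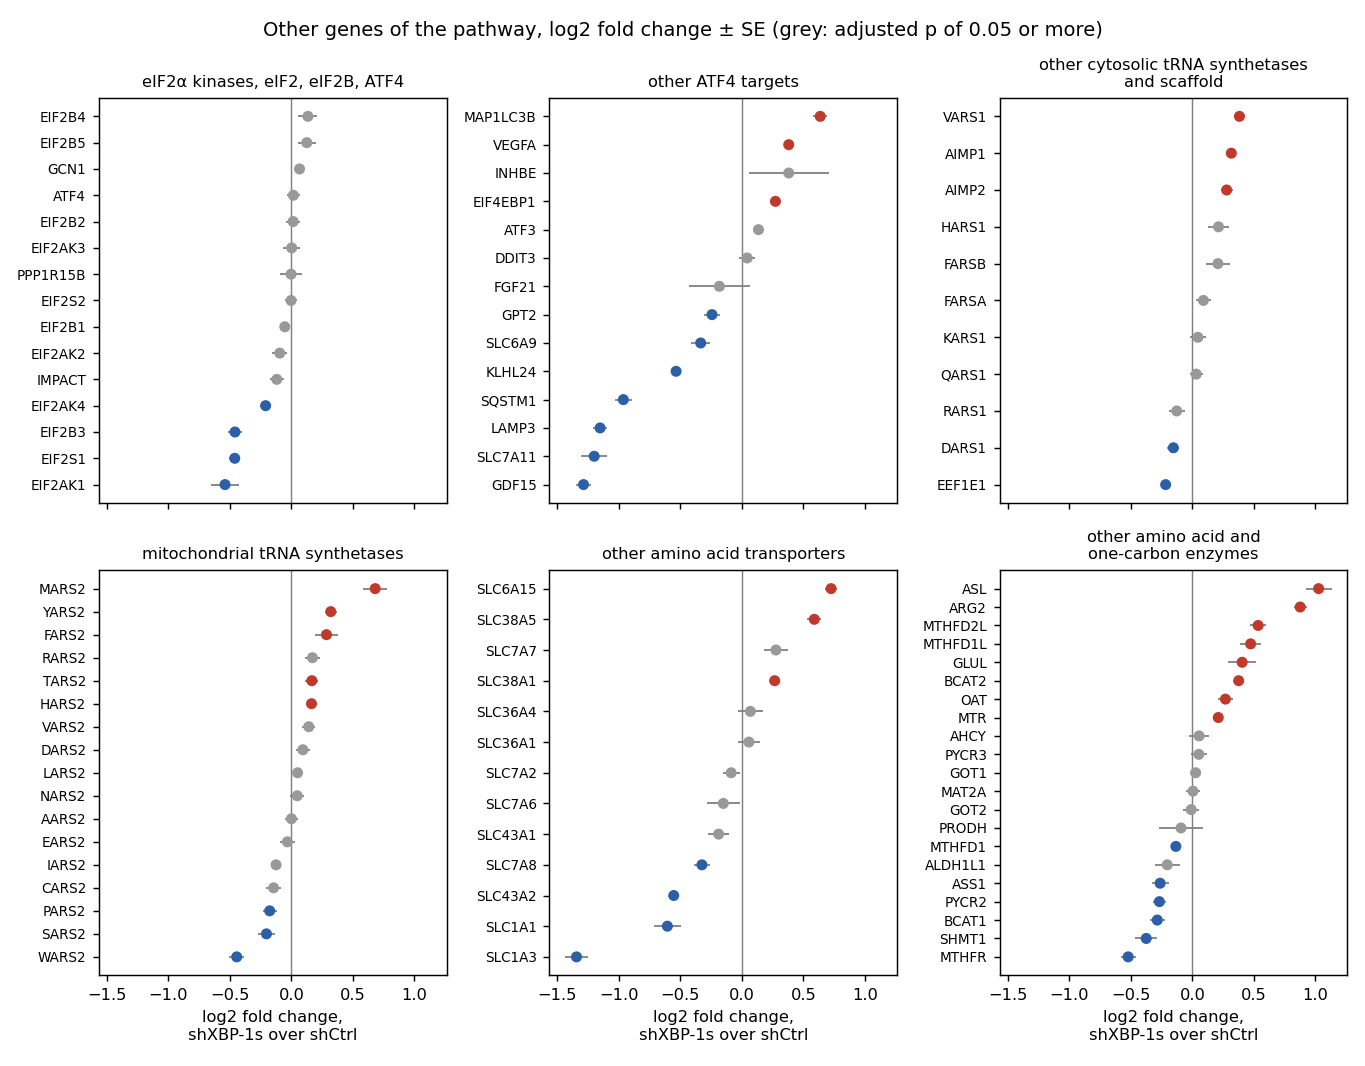
Log2 fold change, shXBP-1s over shCtrl, of 91 of the tested genes of 6 lists around the ATF4 response, with the standard error. Red points rose, blue points fell and grey points did not pass an adjusted p of 0.05. ASL (1.03) stands at the upper end of the enzymes shown, SLC1A3 (-1.35) at the lower end of the transporters, and ATF4 itself lies at 0.02.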

How the data were processed

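CAL-27 cells with shXBP-1s (n = 3) and shCtrl (n = 3) were hybridised to 1-colour Agilent 4 x 44K human arrays, 1 per sample. Groups and replicate numbers came from the sample labels. The authors deposited, per the file headers, the spot intensity from Agilent Feature Extraction 11.0.1.1, background-subtracted and spatially detrended but not normalized between arrays. The deposited log2 values, which the authors quantile normalized to the same distribution on every array, were used as an alternative. The submitters' processing notes name RMA with no version, and the labelling protocol in the labels is a NimbleGen one.

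Outlier spots, as marked by the scanner software, were removed, the 75th percentile of the array over its non-control spots was subtracted from the log2 intensity, and spots of a probe were averaged. The 75th percentile was 687.4 to 761.3 in shCtrl and 792.0 to 983.4 in shXBP-1s. A probe was tested if well above background on every array of either group (27624 of 34127), in R 4.3.3 with limma 3.58.1 (lmFit, eBayes with trend). On simulated data (27624 probes, 50 changed per size), the call at an adjusted p below 0.05 recovered 32% of changes of 0.4, 66% of 0.8, 90% of 1.5 and 98% of 2.5 on the log2 scale. In the arrays 46.4% of tested genes passed, a far larger share than was changed in the simulation. The adjustment was therefore stricter in the simulation, and these shares do not carry over to the arrays. Precision is limited by having 3 arrays a group. Accessions without version gave 25771 probes a RefSeq symbol (GRCh38.p14). The array annotation names hg19, so no probe coordinates are given.

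The genes, their roles, the other lists and the motifs were written from general knowledge, with earlier results of these data known. Every gene of the set is named. Values on each array are given for the 2 largest rises and 2 largest falls of each role, for members with a probe called at 2-fold or with probes called in opposite directions (no member had either), for XBP1, ATF4 and DDIT3, and for up to 4 genes of each other list called at 2-fold, of which 1 is not reported here. Alternatives were normexp (offset 50, on median spot signals), quantile normalization, both together, the deposited values, no filter or a stricter one on dim probes, the methods' t-test, limma with no trend, a 1.5-fold threshold, the replicate number or slide as a block, the mean over probes, and leaving out each array.

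Same-numbered arrays of the 2 groups did not deviate together (correlations of their deviations from the group means -0.02, 0.12 and -0.12), so the numbers were not taken to pair samples.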

Additional observations from a re-analysis of the deposited data

How the results depend on the processing

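The fall of XBP1 and the 6 changes of at least 2-fold in the other lists kept their direction and an adjusted p below 0.05 under every alternative that was run, although GDF15, SLC7A11, LAMP3 and SLC1A3 were under 2-fold (-0.76, -0.63, -0.65 and -0.81) after normexp relative to the median, SLC7A11 (-0.89) and ASL (0.985) after normexp with quantile normalization, and ASL (0.905) after normexp. Of the 20 genes that passed the test, all kept both under quantile normalization, the deposited values, the other filters on dim probes and the mean over probes. Fewer did elsewhere: 14 after normexp, 19 after normexp with quantile normalization and 7 after normexp relative to the median. Likewise 16 did with the slide as a block, 19 without trend, and between 18 and 19 when 1 array was left out. With the methods' t-test all 20 did unadjusted and 18 after adjustment. There SHMT2 (adjusted p = 0.0602, t-test) and SLC1A5 (adjusted p = 0.0708, t-test) no longer passed. With the replicate block 19 did, EPRS1 being lost (adjusted p = 0.0806), and the same-numbered arrays are not known to be pairs. Members that passed only under an alternative were MTHFD2 and XPOT after normexp, MTHFD2, NARS1 and IARS1 after normexp with quantile normalization, XPOT with the replicate block, IARS1 with the mean over probes, and, when 1 array was left out, PYCR1, XPOT, CARS1 and IARS1 (shCtrl replicate 1), WARS1 (shCtrl replicate 3) and MTHFD2 and SLC3A2 (shXBP-1s replicate 1). A fold of at least 1.5 gave 4 members and 4129 probes. Normexp gave 473 probes at 2-fold and 4507 without a minimum fold, with quantile normalization 363 at 2-fold, and 14 lower genes in the other lists.

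The median over all members, -0.01 as reported, was -0.04 after normexp, 0.017 after normexp with quantile normalization, 0.016 after quantile normalization, 0.024 in the deposited values and -0.065 against the control of the same slide (slide as a block). In the same order of settings, where they moved beyond the spread between arrays, the medians were -0.29 (normexp) and -0.31 (slide) for synthesis, -0.047 (normexp with quantile) and -0.074 (slide) for one-carbon enzymes, 0.03 (quantile), 0.05 (deposited) and -0.13 (slide) for transport, -0.29, -0.17, -0.18, -0.18 and -0.23 (all 5) for the regulators, -0.12 (normexp) for the stress effectors, and 0.19, 0.14, 0.14, 0.15 and 0.017 (all 5) for tRNA charging and export.

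Genes whose sign changed did so at small values, except as given. After normexp these were SLC7A1 (0.054), SESN2 (-0.14), ALDH18A1 (0.019), PPP1R15A (-0.09), YARS1 (-0.36), TARS1 (0.16) and DDIT3 (-0.32), and with quantile normalization added CTH (0.024) and TARS1 (0.04). After quantile normalization they were SLC7A1 (0.034), ALDH18A1 (0.019), AARS1 (0.005) and TARS1 (0.014), and in the deposited values SLC7A1 (0.053), ALDH18A1 (0.027), AARS1 (0.007) and TARS1 (0.024). With the slide as a block they were XPOT (-0.006), CARS1 (-0.15), IARS1 (-0.029) and TARS1 (0.017).

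With the median change of all tested probes subtracted after normexp, an alternative chosen after seeing the data, 1 member was called at 2-fold, 22 were higher and 0 lower, 55 genes of the other lists were higher and 5 lower, and 643 probes were called at 2-fold. The medians were then 0.37 for all members, 0.13 for synthesis, 0.26 for one-carbon enzymes, 0.42 for transport, 0.13 for the regulators and 0.60 for tRNA charging and export. Signs turned for CHAC1 (0.21), PSAT1 (0.12), PSPH (0.063), SHMT2 (0.26), SLC7A5 (0.22), SLC3A2 (0.30), SLC7A1 (0.47), CEBPG (0.13), PYCR1 (0.37), ALDH18A1 (0.43), CTH (0.26), CBS (0.14), JDP2 (0.13), AARS1 (0.21), WARS1 (0.38) and TARS1 (0.57), and ATF4 was higher (0.55). Of the 20 genes that passed the test, 7 kept direction and call, 7 turned sign and 6 no longer passed. Those 6 were ASNS (-0.012), PHGDH (-0.34), DDIT4 (-0.25), CEBPB (-0.15), SLC1A5 (0.42) and PPP1R15A (0.33). The subtracted value is set by dim probes, as the report gives.

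When each array was left out in turn, the median ranged from -0.025 to 0.023 for all members, from -0.097 to 0.023 for transport, from 0.135 to 0.333 for the stress effectors and from 0.06 to 0.12 for tRNA charging and export. Single genes that crossed 0 ranged from -0.005 to 0.049 (SLC38A2), -0.097 to 0.076 (SLC7A1), -0.055 to 0.34 (SESN2), -0.073 to 0.011 (ALDH18A1), -0.168 to 0.068 (CTH), -0.088 to 0.052 (AARS1), -0.001 to 0.313 (CARS1), -0.083 to 0.071 (YARS1), -0.067 to 0.052 (TARS1) and -0.013 to 0.045 (ATF4). Apart from the members named in the report, the cause of these shifts was not tested. The 3 arrays per group set the limit, and among the brightest tested probes of the members the standard error was largest for SESN2 (0.215) and ALDH1L2 (0.175).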
